A study of Mus musculus with 7 samples.

Results

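The catabolism of phenylalanine, tyrosine and histidine in cultured mouse hepatocytes was followed through 9 genes. They were chosen by name, as genes of these pathways present in the deposited read-count table, and all 9 were found among its 14819 rows. *Pcbd1* and *Qdpr* encode the enzymes that regenerate tetrahydrobiopterin, *Tat*, *Hpd*, *Hgd* and *Fah* act in the breakdown of tyrosine, and *Hal*, *Uroc1* and *Ftcd* act in that of histidine. Primary hepatocytes came from male WT mice (4 libraries) and from male WDR6-WKO mice (3 libraries), which lack *Wdr6* in the whole body after a CRISPR–Cas9 deletion inside the gene. Cells of both genotypes were isolated by collagenase perfusion, kept in William's E medium with serum overnight and left untreated before their total RNA was sequenced. The methods of the study state a default age for purchased C57BL/6J mice without saying whether it covers the donors of these hepatocytes. The labels give no age and tie no library to a mouse or isolation, so p-values measure the spread between these libraries. Because the deletion is carried by every cell of the mouse, the comparison does not separate effects within hepatocytes from those of the rest of the body.

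As background, phenylalanine is hydroxylated to tyrosine in the liver with tetrahydrobiopterin as cofactor, and the spent cofactor is restored by the dehydratase and the reductase that *Pcbd1* and *Qdpr* encode. Tyrosine then passes through transamination, ring oxidation and ring opening to fumarate and acetoacetate, and inherited loss of the enzymes along this route causes the tyrosinaemias and alkaptonuria. Histidine is deaminated to urocanate and degraded to glutamate, and its last step hands a formimino group to tetrahydrofolate, which ties the route to one-carbon metabolism.

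The libraries held between 17816913 and 23668940 counted reads, and *Wdr6* was at 5.39% of its WT level in WDR6-WKO hepatocytes, with 40 to 62 reads per WDR6-WKO library against 769 to 972 per WT library. WDR6-WKO replicate 3 stood apart from the other libraries of its genotype, from which its counts differed by a chi-square of 14.3 and 16.0 per gene, against 3.81 to 8.24 among WT pairs and 5.13 for WDR6-WKO replicates 1 and 2. Without it, 4233 genes in place of 1897 passed an adjusted p of 0.05 (edgeR), and without any other single library 1032 to 1401 did, so values without a library are given where they change a result. Levels below are read counts scaled to library size with TMM factors (CPM), and group values are means ± s.d. All 6 hepatocyte markers present were detected, with a summed level of 12212 to 14501 CPM in WT and 11056 to 11801 CPM in WDR6-WKO libraries. The other cell types were also represented. Markers are called higher or lower at an edgeR adjusted p under 0.05, as were 6.65% and 6.18% of all genes tested. The summed level of 12 Kupffer cell markers was 859 to 939 CPM in WT and 993 to 1191 CPM in WDR6-WKO libraries, and 3 of the 12 were higher (*C1qb*, *C1qc* and *Lyz2*) and 0 lower. Markers of sinusoidal endothelial cells summed to 311 to 357 and 284 to 339 CPM (0 higher and 1, *Tek*, lower of 8), those of stellate cells to 378 to 426 and 414 to 434 CPM (*Dcn* and *Acta2* higher and *Rgs5* lower of 8) and those of cholangiocytes to 3068 to 3360 and 3713 to 4306 CPM (*Sox9* and *Spp1* higher and 0 lower of 5). Most of the cholangiocyte sum was *Spp1*, with 2824 to 3139 CPM in WT and 3464 to 4082 CPM in WDR6-WKO libraries. The cholangiocyte markers *Krt19*, *Krt7* and *Epcam* did not pass the test (log2 fold changes of -0.05, -0.10 and 0.34). *Ptprc*, the only leukocyte marker present of 6, stood at 12.9 to 16.0 and 14.2 to 15.2 CPM.

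*Fah* and *Ftcd* were lower in hepatocytes without *Wdr6*, and none of the 8 members tested passed with a higher level. *Fah*, the hydrolase of the last step of tyrosine breakdown, stood at 71.1% of its WT level. *Ftcd*, the formiminotransferase cyclodeaminase of the last step of histidine breakdown, stood at 54.1%. *Pcbd1*, *Qdpr*, *Tat*, *Hpd*, *Hgd* and *Uroc1* did not pass the test, and *Hal* had too few reads to be tested. Genes were tested with edgeR's quasi-likelihood test on TMM-scaled counts, with Benjamini-Hochberg adjustment over all 14779 genes that passed the expression filter. Of the 8 members tested, 2 passed an adjusted p of 0.05, while 12.8% of all genes tested passed, 6.18% with a lower and 6.65% with a higher level. The median log2 fold change was -0.38 over these 8 members and 0.01 over all genes tested. The members were chosen with earlier results of these data known, and their difference from all genes was not tested. *Fah* and *Ftcd* were also the only members whose groups did not overlap, which held for 23.5% of all genes tested, 11.7% with the lower and 11.8% with the higher values in WDR6-WKO libraries. The same 2 members passed in DESeq2, where 13.7% of genes passed and 6.85% were lower.

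The sequences upstream of *Fah* and *Ftcd* are shown because these genes fell, and that of *Pcbd1* because it was the member with the highest level per kilobase and did not pass the test. Each runs from 250 bases before to 50 bases after the RefSeq start of the gene (GRCm38.p6), 5′ to 3′ on the strand of the gene. Capitals mark GGGCGG (the GC box) and TATAAA (the TATA box) on either strand. The *Fah* sequence lies on the minus strand at chr7:84605893-84606192, the *Ftcd* sequence on the plus strand at chr10:76575398-76575697 and the *Pcbd1* sequence on the plus strand at chr10:61089081-61089380. The RefSeq start of *Fah* lies inside the gene as GENCODE draws it, whose outermost start is further upstream.
Fah: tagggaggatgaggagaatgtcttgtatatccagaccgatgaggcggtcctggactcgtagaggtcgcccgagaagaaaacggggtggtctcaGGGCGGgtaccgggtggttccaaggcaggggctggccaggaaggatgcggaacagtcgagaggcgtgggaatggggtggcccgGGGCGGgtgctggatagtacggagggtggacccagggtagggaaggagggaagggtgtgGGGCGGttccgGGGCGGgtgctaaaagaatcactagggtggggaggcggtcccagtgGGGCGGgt
Ftcd: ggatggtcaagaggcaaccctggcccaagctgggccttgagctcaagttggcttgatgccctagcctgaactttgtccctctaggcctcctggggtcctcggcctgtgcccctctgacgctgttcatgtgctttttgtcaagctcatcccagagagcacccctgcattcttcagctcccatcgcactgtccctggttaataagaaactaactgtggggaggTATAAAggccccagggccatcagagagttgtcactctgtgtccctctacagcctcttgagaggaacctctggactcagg
Pcbd1: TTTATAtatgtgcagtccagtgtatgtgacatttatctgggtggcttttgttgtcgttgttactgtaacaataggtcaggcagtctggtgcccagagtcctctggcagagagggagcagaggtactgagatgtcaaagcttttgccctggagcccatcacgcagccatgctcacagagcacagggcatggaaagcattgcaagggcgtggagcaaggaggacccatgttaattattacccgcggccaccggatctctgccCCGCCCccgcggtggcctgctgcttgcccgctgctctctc
The window of *Fah* held 5 GC boxes and 19 CpG, and no TATAAA. The window of *Ftcd* held 1 TATAAA, no GGGCGG and 3 CpG. That of *Pcbd1* held 1 of each marked motif and 10 CpG, and its TATAAA was at the far upstream end, on the opposite strand. Among all 32851 promoter windows, GGGCGG occurred in 35.7% and TATAAA in 13.6%. Each was held by 4 of the 9 members. CCAAT was found in 5 of 9 members and 37.4% of windows, TGTTCT in 1 of 9 (*Qdpr*) and 19.0%, and TTGCGCAA in 0 of 9 and 0.183%. No motif overlapped another in the windows of the members.

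Levels were compared between genes as TMM-scaled CPM per kilobase of exon, with exon lengths taken from GENCODE on GRCm38, to which the authors aligned their reads. In WT libraries (mean ± s.d., n = 4) *Pcbd1* was highest at 93.5 ± 5.63, followed by *Fah* at 30.1 ± 1.92, *Qdpr* at 17.1 ± 0.825 and *Ftcd* at 6.01 ± 0.802 CPM per kilobase. The ranges of these neighbours did not overlap. *Uroc1* at 1.12 ± 0.112, *Hgd* at 1.05 ± 0.316, *Hpd* at 0.820 ± 0.142 and *Tat* at 0.624 ± 0.201 CPM per kilobase followed, and the range of each overlapped that of the next. *Hal* was lowest at 0.0676 ± 0.0363, below the range of *Tat*. In WDR6-WKO libraries the order was the same. The routes were thus unevenly represented in these cells, and *Tat*, *Hpd*, *Hgd*, *Hal* and *Uroc1* made up the lower end. The 3 genes highest per kilobase also had the 3 highest CpG counts in their windows (10, 19 and 23, against 0 to 7 in the other 6), which is a description of 9 genes without a test.

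**Figure D1:**
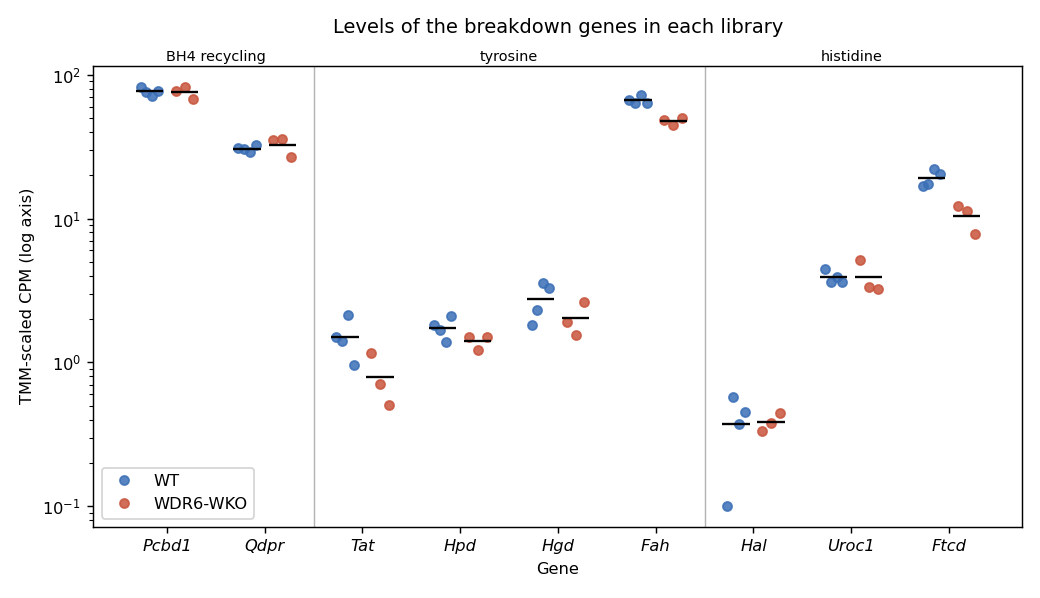
Level of each gene in each library as TMM-scaled CPM on a log axis (points: libraries, 4 WT and 3 WDR6-WKO; black lines: group means; BH4: tetrahydrobiopterin). All 3 WDR6-WKO libraries lie below all 4 WT libraries for *Fah* and *Ftcd*, and the groups overlap for the other 7 genes.

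In the recycling of tetrahydrobiopterin, neither *Pcbd1* nor *Qdpr* passed the test with all 7 libraries. *Pcbd1*, the pterin carbinolamine dehydratase, lies on chromosome 10 from 61089331 to 61094324. It was counted at 82.2, 75.9, 70.9 and 76.5 CPM in WT replicates 1 to 4 and at 76.7, 82.5 and 67.3 CPM in WDR6-WKO replicates 1 to 3. WDR6-WKO replicate 3 was below and replicate 2 just above the WT range. The log2 fold change was -0.015 (s.e. 0.07, 95% interval -0.17 to 0.14, edgeR adjusted p = 0.921).
*Qdpr*, the dihydropteridine reductase that returns the cofactor to its active form, lies on chromosome 5 from 45434021 to 45450236. It was counted at 30.7, 30.6, 28.8 and 32.4 CPM in WT and at 35.0, 35.4 and 26.8 CPM in WDR6-WKO libraries, so that 2 WDR6-WKO libraries were above and 1 was below every WT library. Its log2 fold change was 0.086 (s.e. 0.09, 95% interval -0.11 to 0.28, edgeR adjusted p = 0.585). Without WDR6-WKO replicate 3 it was 0.20 and passed the test (edgeR adjusted p = 0.0260). In that fit 4233 of all 14796 genes tested passed, against 1897 of 14779 with all libraries. The exons of *Qdpr* share 332 of 1788 bases with *Gm42413* on the opposite strand, and the strand setting of the counts is not given in the sources used here, so reads of *Gm42413* can be among those counted on *Qdpr*.

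In tyrosine breakdown, *Fah* fell and the 3 enzymes before it that are members did not pass the test. *Tat*, the tyrosine aminotransferase that opens the route and a classic target of glucocorticoids, lies on chromosome 8 from 109990437 to 109999803. Its reads numbered 30, 27, 40 and 19 in WT and 28, 15 and 9 in WDR6-WKO libraries, or 1.51, 1.41, 2.13 and 0.954 CPM against 1.16, 0.709 and 0.503 CPM. Only WDR6-WKO replicate 1 lay inside the WT range. The log2 fold change of *Tat* was -0.88 (s.e. 0.34, 95% interval -1.59 to -0.16), with an unadjusted p of 0.0198 in the edgeR test. After adjustment it did not pass (edgeR adjusted p = 0.102), and an exact two-sided permutation test of its log2 CPM gave p = 0.0857.
*Hpd*, the hydroxyphenylpyruvate dioxygenase, lies on chromosome 5 from 123171807 to 123182727 and was read 36, 32, 26 and 42 times in WT and 36, 26 and 27 times in WDR6-WKO libraries. These are 1.81, 1.68, 1.38 and 2.11 against 1.50, 1.23 and 1.51 CPM, with 1 WDR6-WKO library below the WT range. Its log2 fold change was -0.31 (s.e. 0.23, 95% interval -0.80 to 0.19, edgeR adjusted p = 0.418).
*Hgd*, the homogentisate dioxygenase, lies on chromosome 16 from 37580153 to 37632020. It was counted at 1.81, 2.30, 3.56 and 3.31 CPM in WT and at 1.91, 1.56 and 2.62 CPM in WDR6-WKO libraries, and 2 of the 3 WDR6-WKO libraries lay inside the WT range. Its log2 fold change was -0.45 (s.e. 0.26, 95% interval -0.99 to 0.10, edgeR adjusted p = 0.272).
The coefficient of variation of *Hpd* among WT libraries was 17.3%, where counting error alone gives 17.1%. *Tat* varied by 32.1% where counting error gives 18.6%, and *Hgd* by 30.1% where it gives 13.7%. *Fah* varied by 6.37%, with a counting error of 2.78%. Changes as large as that of *Fah* lie inside the intervals of *Tat*, *Hpd* and *Hgd*.

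*Fah*, on chromosome 7 from 84585159 to 84606722, was read 1330, 1212, 1365 and 1269 times in WT and 1158, 939 and 892 times in WDR6-WKO libraries. Its level was 67.1, 63.5, 72.6 and 63.7 CPM in WT replicates 1 to 4 and 48.1, 44.4 and 49.8 CPM in WDR6-WKO replicates 1 to 3. Every WDR6-WKO library was below every WT library. The mean fell from 66.7 ± 4.25 to 47.4 ± 2.79 CPM (n = 4 and 3), which is -0.49 on the log2 scale (s.e. 0.07, 95% interval -0.63 to -0.35, edgeR adjusted p = 0.000141). The exact two-sided permutation test gave p = 0.0286, the smallest that 4 libraries against 3 allow. After Benjamini-Hochberg adjustment over the 9 members this permutation p was 0.129, so *Fah* did not pass by this test. *Fah* was read 81.6 to 102 times per 100 reads of *Pcbd1* in WT libraries and 53.8 to 74.0 times in WDR6-WKO libraries. This ratio does not depend on how libraries are scaled. It was chosen after the values were seen and was not tested.

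In histidine breakdown, *Ftcd* fell, *Uroc1* did not pass the test and *Hal* was barely detected. *Hal*, the histidine ammonia-lyase of the first step, lies on chromosome 10 from 93488768 to 93519304. It had 2, 11, 7 and 9 reads in WT and 8 reads in each WDR6-WKO library, near the smallest row total of the table, 50 reads. Its level was 0.101 to 0.576 CPM in WT and 0.332 to 0.447 CPM in WDR6-WKO libraries, and no difference was detectable at this depth.
*Uroc1*, the urocanate hydratase of the next step, lies on chromosome 6 from 90333284 to 90364551. It was counted at 4.44, 3.61, 3.94 and 3.61 CPM in WT and at 5.11, 3.35 and 3.24 CPM in WDR6-WKO libraries. WDR6-WKO replicate 1 was above and the other 2 were below the WT range. The log2 fold change was 0.014 (s.e. 0.18, 95% interval -0.37 to 0.40, edgeR adjusted p = 0.974), and without WDR6-WKO replicate 1 it was -0.25.
*Ftcd* lies on chromosome 10 from 76575648 to 76590338 and was read 333, 330, 416 and 408 times in WT and 293, 237 and 139 times in WDR6-WKO libraries. Its level was 16.8, 17.3, 22.1 and 20.5 CPM in WT replicates 1 to 4 and 12.2, 11.2 and 7.76 CPM in WDR6-WKO replicates 1 to 3, again without overlap, and replicate 3 was the lowest. The mean fell from 19.2 ± 2.56 to 10.4 ± 2.32 CPM (n = 4 and 3), which is -0.87 on the log2 scale (s.e. 0.14, 95% interval -1.18 to -0.57, edgeR adjusted p = 0.00110). The exact two-sided permutation test gave p = 0.0286, and 0.129 after Benjamini-Hochberg adjustment over the 9 members, so *Ftcd* did not pass by it either. Without WDR6-WKO replicate 3 the log2 fold change was -0.71, and *Ftcd* still passed the test (edgeR adjusted p = 1.23e-05). Per 100 reads of *Uroc1* there were 378 to 567 reads of *Ftcd* in WT libraries and 238 to 334 in WDR6-WKO libraries. This ratio was also chosen after the values were seen. Of the 4 ratios computed, the groups overlapped only for *Ftcd* per 100 reads of *Fah*. That ratio was 25.04 to 32.15 in WT and 15.58 to 25.3 in WDR6-WKO libraries.

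**Figure D2:**
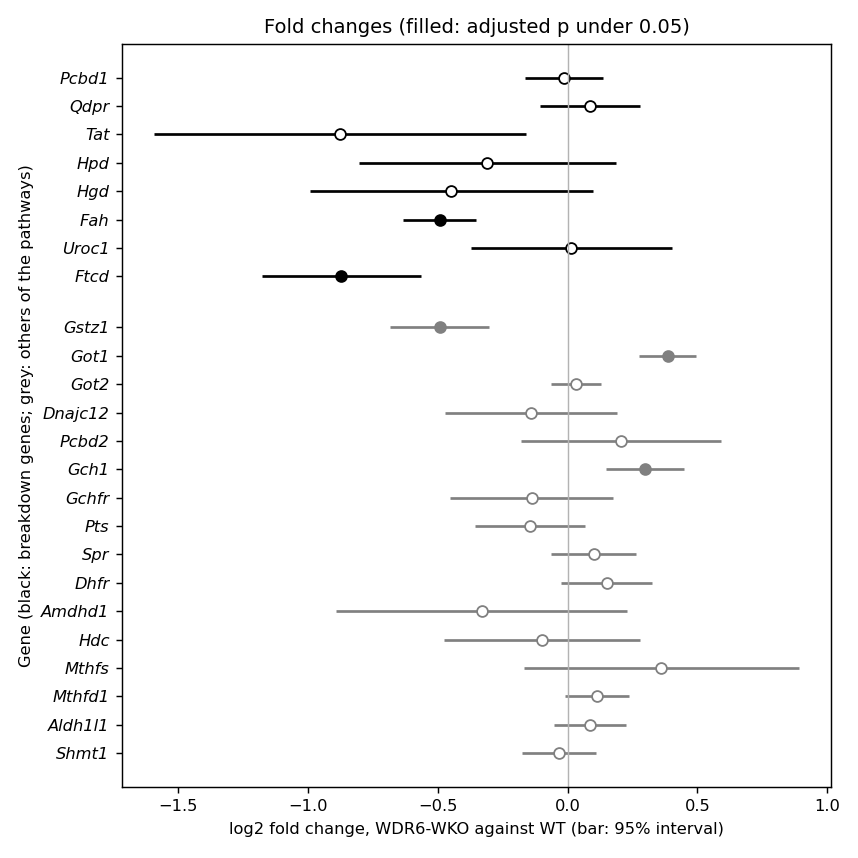
Log2 fold change of WDR6-WKO against WT hepatocytes for the 8 tested members (black) and 16 further genes of the same pathways (grey), with 95% intervals from edgeR's quasi-likelihood fit and filled points at an adjusted p below 0.05. *Fah*, *Ftcd* and *Gstz1* fell, *Got1* and *Gch1* rose, and the intervals of *Tat*, *Hpd* and *Hgd* are wide.

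In bulk RNA, fewer cells of a type and less RNA per cell cannot be told apart. Beside the lower levels of *Fah* and *Ftcd*, 2 of 6 hepatocyte markers present were lower (*Apoa1* and *Fgb*) and 0 higher in WDR6-WKO libraries. The median log2 fold change was -0.18 over these markers and 0.23 over the 12 Kupffer cell markers. The part of these shifts in the levels of the 9 genes was not tested.

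Other genes of these pathways were listed by function, beside 12.8% of all genes tested that passed in either direction. *Gstz1*, the maleylacetoacetate isomerase that acts directly before *Fah*, fell from 28.0 ± 3.06 to 19.9 ± 0.713 CPM (n = 4 and 3). This was -0.49 on the log2 scale (s.e. 0.09, edgeR adjusted p = 0.00176), the same as that of *Fah* at this precision. *Got1*, the cytosolic aspartate aminotransferase, rose from 122 ± 3.47 to 159 ± 8.09 CPM (n = 4 and 3), a log2 fold change of 0.38 (edgeR adjusted p = 0.000127). Of the 5 further genes of aromatic amino acids (with *Got2*, *Dnajc12* and *Pcbd2*), these were the 2 that passed. Of 5 genes of tetrahydrobiopterin synthesis and its control, 1 was higher and 0 were lower. That gene was *Gch1*, the GTP cyclohydrolase that commits GTP to the cofactor, which rose from 86.1 ± 4.15 to 106 ± 12.1 CPM (n = 4 and 3; log2 fold change 0.30, edgeR adjusted p = 0.0113). None of the 6 genes of histidine and one-carbon transfer passed the test, and none had an unadjusted p under 0.05 in edgeR or passed in DESeq2. *Amdhd1*, which acts between *Uroc1* and *Ftcd*, had a log2 fold change of -0.33 (s.e. 0.26).
Among 5 transporters of aromatic amino acids and histidine, 1 was higher and 1 lower. *Slc7a5*, a carrier of large neutral amino acids, rose from 72.5 ± 4.42 to 118 ± 9.41 CPM (n = 4 and 3). *Slc38a3*, a carrier of glutamine and histidine, fell from 126 ± 2.56 to 100.2 ± 2.86 CPM (n = 4 and 3). The log2 fold changes were 0.70 and -0.33, with adjusted p of 3.25e-06 and 0.000351 in the edgeR test.

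**Figure D3:**
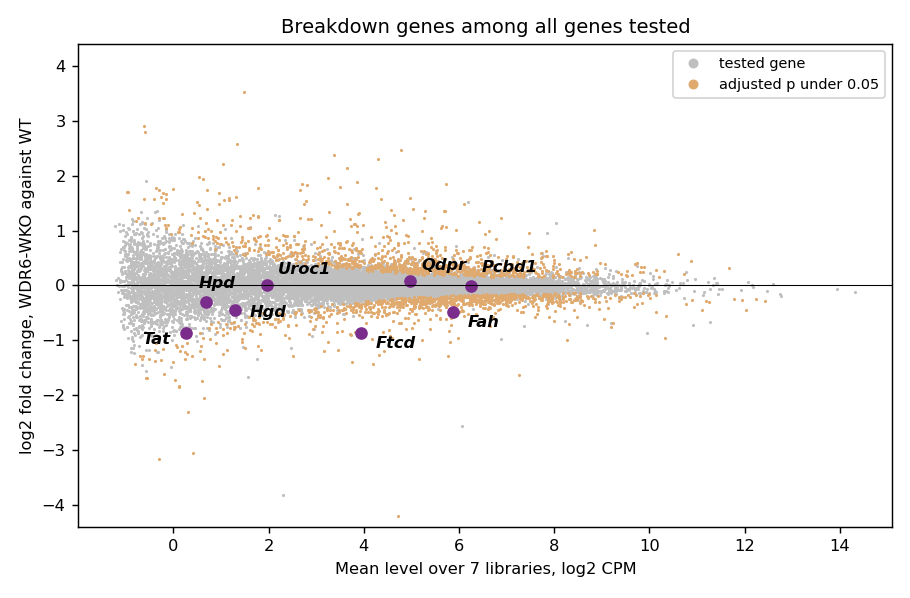
Log2 fold change of WDR6-WKO against WT (vertical) and mean level over the 7 libraries in log2 CPM (horizontal) for the 14779 genes tested, with the 8 tested members in purple and other genes with an adjusted p under 0.05 in orange. *Fah* and *Ftcd* lie below the band of genes of similar level, and *Tat*, *Hpd* and *Hgd* lie at low levels where the band is wide.

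Transcription factors that are known to act on liver amino acid catabolism were examined as a list of 10, of which 0 were higher and 3 were lower. Beside this and the counts below, 6.65% of all genes tested were higher and 6.18% lower. *Hnf4a* (log2 fold change -0.27), *Cebpa* (-0.29) and *Foxa1* (-0.28), which belong to the nuclear receptor, C/EBP and forkhead families that maintain hepatocyte genes, had adjusted p of 0.00502, 0.0186 and 0.00770 in the edgeR test. *Nr3c1*, the glucocorticoid receptor, had a log2 fold change of -0.05 (s.e. 0.06) and did not pass. The part of these 10 factors in the levels of *Fah*, *Ftcd* and the other members was not tested. Of 11 genes present that respond to glucocorticoids as *Tat* does, 2 were higher (*Tsc22d3* at 0.35 and *Ddit4* at 0.67) and 2 were lower (*Igfbp1* at -0.62 and *Pck1* at -1.73). Their median log2 fold change was 0.05. Their part in the level of *Tat* was not tested. In the zones of the liver lobule, 2 of 10 periportal genes were higher (*Arg1* and *Cyp2f2*) and 2 lower (*Cps1* and *Pck1*), with a median log2 fold change of 0.02. Of 8 pericentral genes present, 0 were higher and 5 lower (*Glul*, *Oat*, *Gulo*, *Cyp2e1* and *Cyp1a2*), with a median of -0.33.

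Other routes of amino acid breakdown were set beside the 9 genes by the same counts, with 6.65% of all genes tested higher and 6.18% lower. Of 6 genes of tryptophan breakdown tested, 3 were lower and 0 higher, with a median log2 fold change of -0.21, and *Acmsd* had the smallest p (-0.80). Of 8 genes of the urea cycle, 1 was higher (*Arg1*, 0.77) and 1 lower (*Cps1*, -0.69), with a median of -0.04. Of 10 genes of methionine, glycine and serine breakdown, 2 were higher and 1 was lower, with a median of 0.13, and *Cth* (1.07) and *Amt* (-0.85) had the smallest p in each direction. Differences between these routes were not tested.

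Over the 7 libraries, the genes whose log2 CPM was most like that of *Fah*, the member with the smallest p, were *Gm4952*, *Decr2* and *Gpam* (Pearson's r of 0.992, 0.990 and 0.986). The difference between the genotypes is part of this likeness, which was taken as the highest over all genes tested and is a description only.

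**Figure D4:**
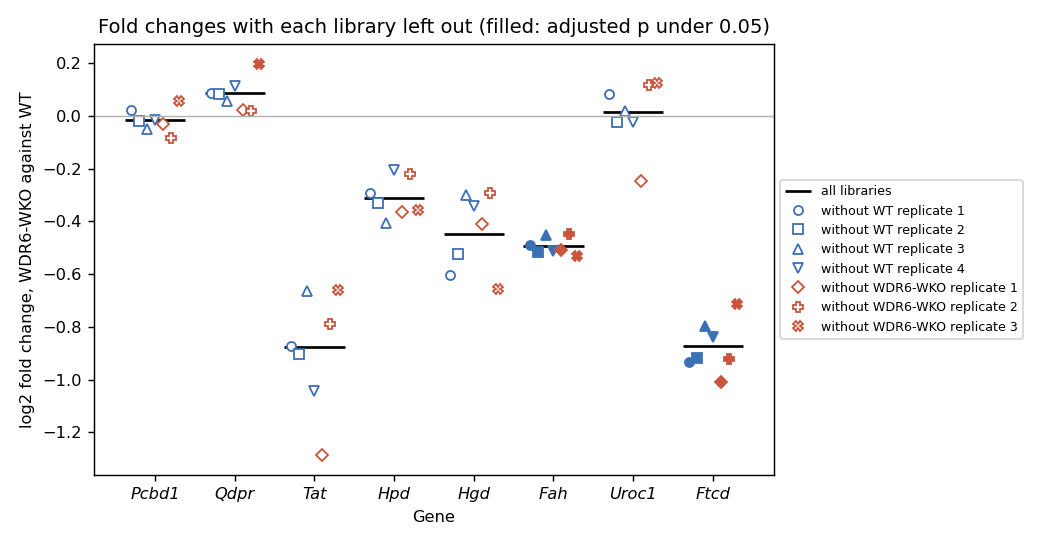
Log2 fold change of each tested member with all 7 libraries (black lines) and with each library left out in turn (points, filled where edgeR's adjusted p was below 0.05). *Fah* stayed between -0.53 and -0.45 and *Ftcd* between -1.01 and -0.71, with filled points throughout, while *Qdpr* passed only without WDR6-WKO replicate 3.

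With each library left out in turn, *Fah* and *Ftcd* remained lower, with adjusted p of at most 0.00119 and 0.00583 in the edgeR test. *Tat* ranged from -1.29, without WDR6-WKO replicate 1, to -0.66, without WDR6-WKO replicate 3, with adjusted p between 0.0619 and 0.276. The study called genes that changed by 0.35 or more on the log2 scale with an unadjusted P below 0.05. On the edgeR values, *Fah*, *Ftcd* and *Tat* met these thresholds with lower and 0 members with higher levels, where 10.4% of all genes tested met them, 3.94% with lower and 6.42% with higher levels.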

How the data were processed

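The authors sequenced RNA of primary hepatocytes on an Illumina HiSeq platform, aligned reads to the mouse genome (mm10, GRCm38) with Bowtie2 2.2.3 per the labels, and deposited unnormalized read counts by gene symbol. The counting tool, annotation and strand setting are not given in the sources used here. The table has 14819 rows with 14817 different identifiers, and its smallest row total is 50. Depth was 17816913 to 23668940 counts per library, with a biological coefficient of variation of 7.40%.

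From the deposited counts, edgeR 4.0.16 (R 4.3.3) gave log2 fold changes (TMM, filterByExpr, robust quasi-likelihood test, Benjamini-Hochberg over 14779 genes), with standard errors (s.e.) from the F statistic. CPM were TMM-scaled, and permutation tests used log2 CPM with a prior count of 2 over all 35 splits. Intervals cover 95%. The studied genes and lists were chosen with earlier results of these data known. Genes of other lists were named where their adjusted p was under 0.05 (in compared routes, the smallest p in each direction). *Amdhd1*, *Nr3c1* and the other members of short lists were named after their values were seen. Alternatives were DESeq2 1.42.0, limma-voom (limma 3.58.1), other scalings and filters, a replicate block, each library left out and other thresholds. Exon lengths came from GENCODE (GRCm38) and promoter sequences of all 9 genes from RefSeq (GRCm38.p6). On simulated data for this comparison with 14733 genes tested, 65 of 100 genes changed by 0.5 and 85 of 100 changed by 1 (log2) were recovered, with 8 false calls. No other genes were changed there, while 1897 passed in the data. All simulated libraries shared the same spread for a gene, without a library that stood apart as WDR6-WKO replicate 3 did. These rates therefore need not hold for the data.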

Additional observations from a re-analysis of the deposited data

How the results depend on the processing

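*Fah* and *Ftcd* were lower with an adjusted p under 0.05 under all 7 other settings of scaling, filter, tool and block and with each of the 7 libraries left out. Their log2 fold changes over the other settings ranged from -0.51 to -0.47 and from -0.88 to -0.84. The highest adjusted p was 0.000216 for *Fah* and 0.0337 for *Ftcd*, in edgeR's fits. The number of members that passed was 2 under each of these settings, where 1762 to 1989 of all genes tested passed. It was 2 or 3 with a library left out, where 1032 to 4233 genes passed. At an adjusted p under 0.1 and under 0.01 it was also 2. The thresholds of the study were met by 2 to 4 members with a library left out. All genes were not counted at these 2 adjusted p, or by the thresholds of the study with a library left out. Only members near 0 changed sign. *Pcbd1* was 0.012 with library sizes alone, and between -0.083 and 0.057 with a library left out. *Uroc1* was -0.043 with the replicate block, and between -0.25 and 0.12 with a library left out. *Qdpr* ranged from 0.019 to 0.20 with a library left out and passed without WDR6-WKO replicate 3. *Tat* had adjusted p from 0.0584 to 0.114 over the other settings and could not be fitted at a minimum of 10 counts in every library. The cause of these changes was not tested. With library sizes alone, 1212 genes were higher and 696 lower, against 983 and 914 with TMM factors. Deviations of same-numbered libraries of the genotypes had correlations of 0.0396, 0.0202 and 0.0379. Those of differently numbered libraries lay between -0.131 and 0.123. These values cannot tell whether the numbers pair the samples, and the labels do not say. The block changed no call of a member and moved the count over all genes from 1897 to 1762. Per kilobase of the longest transcript, WT levels were 42.1 for *Fah*, 22.2 for *Qdpr*, 1.62 for *Hgd* and 1.24 for *Hpd*, and *Hgd* and *Hpd* then stood above *Uroc1*. Without the filter, *Hal* had a log2 fold change of 0.03 (s.e. 0.49). Depth limits *Hal*, with 29 reads in all WT and 24 in all WDR6-WKO libraries.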
